A study of Drosophila melanogaster with 2 samples.

Results

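The 10 genes described here belong to the Enhancer of split complex, E(spl)-C, a cluster on chromosome 3R of Drosophila melanogaster, and were taken by name from the gene annotation, among 13968 protein-coding genes in all. They comprise 7 genes of basic helix-loop-helix (bHLH) repressors, E(spl)mdelta-HLH, E(spl)mgamma-HLH, E(spl)mbeta-HLH, E(spl)m3-HLH, E(spl)m5-HLH, E(spl)m7-HLH and E(spl)m8-HLH. The other 3 encode Bearded family proteins, E(spl)m4-BFM, E(spl)m2-BFM and E(spl)malpha-BFM. Binding of Senseless-2 (Sens-2), a zinc-finger protein encoded by sens-2, was mapped by ChIP-seq, the sequencing of chromatin fragments pulled down with an antibody, here one against GFP, after sonication to 200 to 800 bp. The chromatin came from whole embryos of 0 to 24 h from flies that carry a fusion of sens-2 to eGFP, in 2 biological replicates that form 1 group. The label gives an insertion targeting sens-2 and does not say whether the untagged gene was also present. Both replicates carry the tagged gene, and no untagged, input or mock library was analysed here. All embryonic cells were pooled, so the peaks do not show which cells were bound, and peak lists hold no expression values against which a cell type could be checked.

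When the receptor Notch is activated, its intracellular part joins the DNA-binding protein Suppressor of Hairless, Su(H), and switches on the E(spl) genes. The bHLH members then recruit the corepressor Groucho and silence neural genes, so that cells next to a sensory organ precursor do not become precursors themselves. Bearded family proteins act on the same decision by inhibiting Neuralized, a ubiquitin ligase that activates Notch ligands. Senseless, the paralog of Sens-2, is a marker and effector of the precursor fate and recognises DNA with the core AAATCA.

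Sens-2 peaks lay upstream of 6 of the 10 genes, and none lay within the body of any of them. The count is from the conservative list, in which the authors kept peaks that were reproducible between the replicates at an irreproducible discovery rate (IDR) score of at least 830 of 1000. The domain of a gene runs from 2 kb upstream of its start to its end, and a peak was assigned by its summit, the position of its maximum. There were 7 distinct summits, 5 at bHLH genes (E(spl)m7-HLH, E(spl)m3-HLH, E(spl)mbeta-HLH and, with 2 summits, E(spl)mdelta-HLH) and 2 at Bearded family genes (E(spl)m2-BFM and E(spl)malpha-BFM). The domains of E(spl)m5-HLH, E(spl)mgamma-HLH, E(spl)m8-HLH and E(spl)m4-BFM held 0. By the same rule 17.9% of all protein-coding genes held a summit (2500 of 13968). The members lie side by side and were chosen with earlier results known, so the counts are given as a description with no test.

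The bases within 50 bp of each summit are shown because the summit is the point at which the authors placed the peak. They are from RefSeq's copy of Release 6 of the genome, which has the coordinates of dm6, and are written on the plus strand from 5′ to 3′. Capitals mark matches, on either strand, to AAATCA, to the Su(H) site GTGGGAA and its variant forms GTGAGAA and also GTGTGAA, to the E-box CAGCTG, the E-box CAGATG and the E-box CAGGTG, to the bHLH repressor site CACGTG and the repressor site CACGCG, to the GATA factor site GATAAG, to the DREF site TATCGATA and to the homeodomain site TAATTA. In genome order, the 7 windows read:
E(spl)mdelta-HLH chr3R:25996547-25996647: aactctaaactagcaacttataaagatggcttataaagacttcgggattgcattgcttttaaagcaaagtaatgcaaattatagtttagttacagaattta
E(spl)mdelta-HLH chr3R:25997149-25997249: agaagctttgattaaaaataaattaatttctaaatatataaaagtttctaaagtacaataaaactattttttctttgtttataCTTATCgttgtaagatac
E(spl)mbeta-HLH chr3R:26006267-26006367: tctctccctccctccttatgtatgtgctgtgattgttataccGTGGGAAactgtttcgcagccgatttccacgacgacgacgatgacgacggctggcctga
E(spl)malpha-BFM chr3R:26009036-26009136: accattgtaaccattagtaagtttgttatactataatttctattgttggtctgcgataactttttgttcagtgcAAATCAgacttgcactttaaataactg
E(spl)m2-BFM chr3R:26017814-26017914: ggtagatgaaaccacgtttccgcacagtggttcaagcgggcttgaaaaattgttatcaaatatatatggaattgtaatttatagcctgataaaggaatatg
E(spl)m3-HLH chr3R:26020328-26020428: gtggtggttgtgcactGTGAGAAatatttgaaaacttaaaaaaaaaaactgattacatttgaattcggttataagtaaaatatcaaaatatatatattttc
E(spl)m7-HLH chr3R:26036537-26036637: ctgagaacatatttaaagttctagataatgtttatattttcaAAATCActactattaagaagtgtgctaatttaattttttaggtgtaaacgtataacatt

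**Figure D1:**
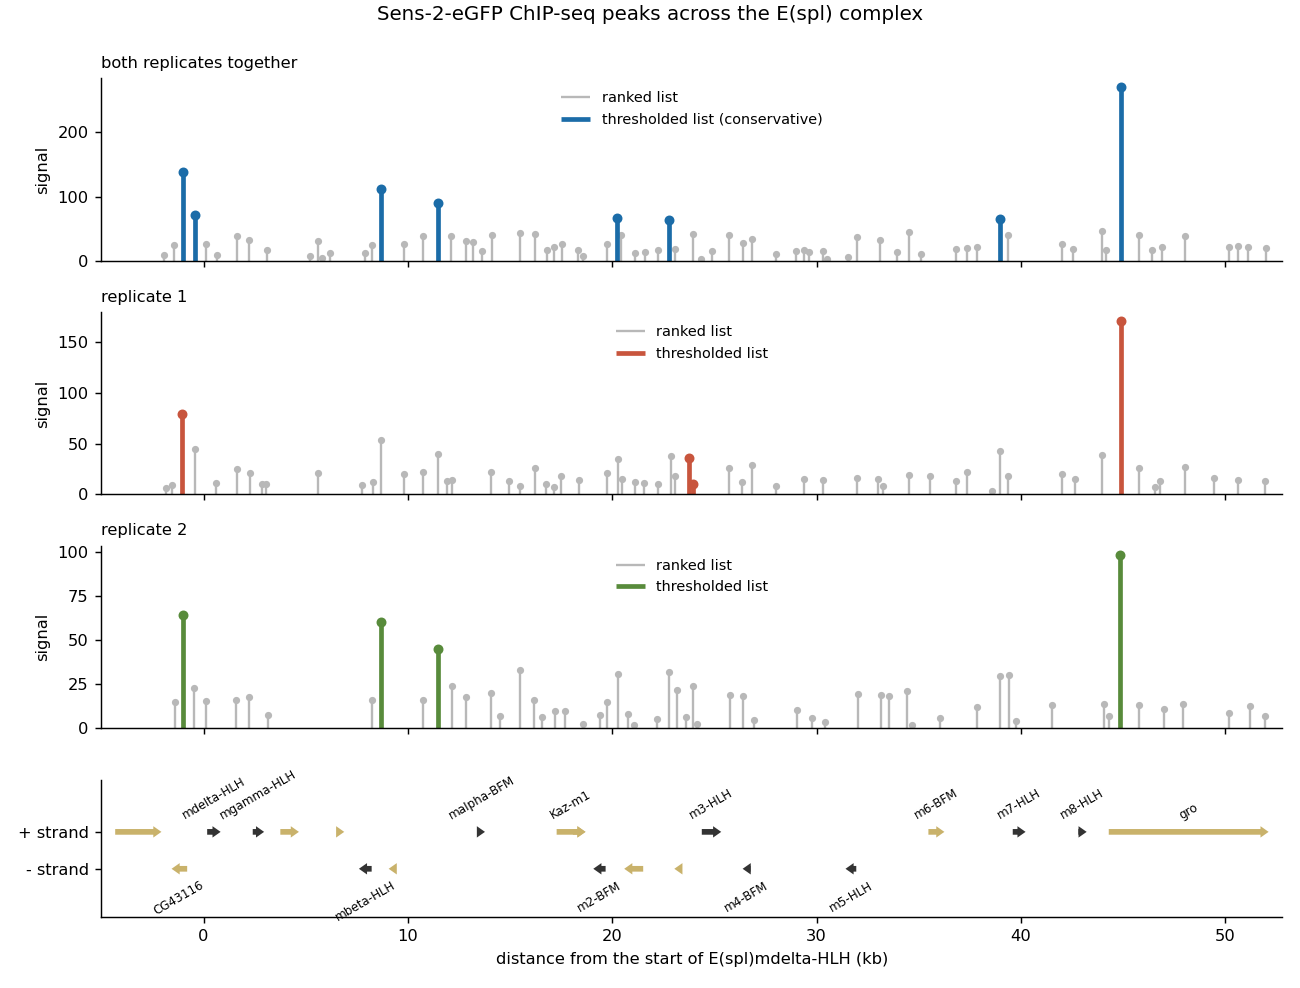
Peaks across the complex and the neighbouring gene gro, by distance from the start of E(spl)mdelta-HLH in kb on the x axis and by the authors' signal on the y axis, which has its own scale in each panel. Grey lines are peaks of the ranked list, coloured lines are thresholded peaks, and arrows are genes (black for the 10 members, ochre for other genes, some unlabelled). The highest peak in all 3 panels is that of gro, and the highest at a member is that of E(spl)mdelta-HLH.

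The strongest peak of the complex lay by E(spl)mdelta-HLH (FBgn0002734, 3R 25997621 to 25998633, plus strand), the bHLH repressor gene that comes first in genome order. The peak, 3R 25996449 to 25996744, had a signal of 139 in the conservative list, 79.0 in replicate 1 and 64.4 in replicate 2. Signal is the authors' value per peak on the scale of its own list, so it can be ranked within a list and not averaged across lists. Its rank was 535 of 2883 in the conservative list, 621 of 1960 in the thresholded list of replicate 1 and 415 of 1636 in that of replicate 2. It was the only one of the 7 peaks that overlapped a thresholded peak in both replicates. Its summit lay 1024 bp upstream of the start of E(spl)mdelta-HLH, in an intron of CG43116, a gene on the opposite strand whose start is 399 bp away. CG43116 is named only, since its function is not annotated in the files.

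A weaker peak, 3R 25997051 to 25997346, lay between the starts of these divergent genes, 422 bp upstream of E(spl)mdelta-HLH and 203 bp from the start of CG43116. Its signal was 71.4 in the conservative list, and the overlapping ranked peaks had 44.3 in replicate 1 and 22.7 in replicate 2. Neither of these passed its replicate's own threshold, with scores of 173 and 397. Both summits lie in the domain of CG43116 as well, and which gene they belong to was not tested.

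E(spl)mbeta-HLH (FBgn0002733, 3R 26005046 to 26006023, minus strand) had the next strongest peak, at 3R 26006169 to 26006464. The signal was 112 in the conservative list, 53.8 in replicate 1 and 60.7 in replicate 2. The summit lay 294 bp upstream of the start, the closest of the 7 to the start of its own gene, in intergenic sequence. Replicate 2 passed its threshold with a score of 1000, and replicate 1 stood at 827, just under 830. The window has a GC content of 53.5%, the highest of the 7, and holds the Su(H) site GTGGGAA from 8 to 2 bp before the summit along the plus strand.

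The 2 Bearded family genes with a peak differed in its position. E(spl)malpha-BFM (FBgn0002732, 3R 26010893 to 26011568, plus strand) had its peak at 3R 26008938 to 26009233, 1807 bp upstream of the start and farther than any other summit from a member's start. The signal was 89.4 in the conservative list, 39.5 in replicate 1 and 44.9 in replicate 2, where it passed the threshold. The window holds AAATCA 24 to 29 bp after the summit. E(spl)m2-BFM (FBgn0002592, 3R 26016514 to 26017470, minus strand) had its peak at 3R 26017716 to 26018011, 394 bp upstream, with signals of 67.2, 34.6 and 31.2 in the same order. It passed in neither replicate alone, with scores of 647 and 611, and its window holds none of the motifs in capitals.

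At the bHLH gene E(spl)m3-HLH (FBgn0002609, 3R 26021823 to 26023127, plus strand) the lists disagreed on the place. The conservative peak, 3R 26020230 to 26020525, had a signal of 63.9, the lowest of the 7, and its summit lay 1445 bp upstream. The overlapping ranked peaks had signals of 37.8 in replicate 1 and 32.3 in replicate 2 and passed in neither, with scores of 42 and 749. Its window holds the Su(H) site GTGAGAA 34 to 28 bp before the summit. Replicate 1 instead had 2 thresholded peaks nearer the gene, with summits 441 and 240 bp upstream and signals of 35.6 and 10.2. The ranked peaks of replicate 2 that overlapped these had signals of 6.53 and 24.0 and scores of 53 and 402, below the threshold. The window around the stronger of the 2 is shown for comparison with those above and holds no motif in capitals:
E(spl)m3-HLH chr3R:26021332-26021432: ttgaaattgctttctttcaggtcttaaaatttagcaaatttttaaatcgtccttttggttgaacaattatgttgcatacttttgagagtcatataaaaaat

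E(spl)m7-HLH (FBgn0002633, 3R 26037038 to 26038019, plus strand), another bHLH repressor gene, had its peak at 3R 26036439 to 26036734. The signal was 64.5 in the conservative list, 42.8 in replicate 1 and 29.7 in replicate 2, with scores of 499 and 120 in the replicates' own lists. The summit lay 451 bp upstream, and AAATCA stands 8 to 3 bp before it, closer than in the window of E(spl)malpha-BFM. Replicate 2 had a further ranked peak with a summit 13 bp upstream of the start, a signal of 30.3 and a score of 817, which did not pass either.

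The strongest ranked peak in the domain was weaker at the 4 genes with no thresholded summit than at the other 6 in each ranked list, without overlap. Ranked lists hold peaks at any score, and all 10 domains held at least 1 ranked peak in each replicate, as did 92.3% of all protein-coding genes in replicate 1 and 93.9% in replicate 2. For E(spl)m5-HLH the strongest had a signal of 36.3 across replicates, 16.2 in replicate 1 and 19.5 in replicate 2. For E(spl)mgamma-HLH the values were 39.0, 25.3 and 17.6, and for E(spl)m8-HLH 26.3, 20.0 and 13.0. For the Bearded family gene E(spl)m4-BFM they were 34.1, 28.6 and 18.5. Unlike the 7 conservative summits, the strongest across replicates lay inside the gene at E(spl)m5-HLH, 129 bp after its start, and at E(spl)m4-BFM, 119 bp after it. At E(spl)mgamma-HLH it lay 602 bp and at E(spl)m8-HLH 608 bp upstream. At E(spl)mgamma-HLH the replicates differed in place, with the strongest peak 617 bp upstream in replicate 1 and 16 bp after the start in replicate 2. For the 6 genes with a conservative summit the strongest ranked signal ran from 34.6 to 79.0 in replicate 1 and from 30.3 to 64.4 in replicate 2. Conservative peaks were chosen from the same signals, so this order is a description. The domain of E(spl)m8-HLH held 2 ranked peaks in replicate 1 and 1 in replicate 2.

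In the conservative list the weakest member peak had a signal of 63.9 (E(spl)m3-HLH). In the ranked list matched to it, the strongest member peak below the threshold had 41.1, also at E(spl)m3-HLH, followed by 40.3 at E(spl)m7-HLH. This gap is not present in the other thresholded list across both replicates, where an E(spl)m2-BFM peak with a signal of 39.5 passed. Over all protein-coding genes with a ranked peak, the median of the strongest signal per domain was 21.3 in replicate 1 and 16.3 in replicate 2. Of the members, 8 of 10 stood above it in replicate 1 and 9 of 10 in replicate 2, and E(spl)m8-HLH stood below it in both. The members' domains are shorter than most, at a median of 2934 bp against 4164 bp over all protein-coding genes.

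**Figure D2:**
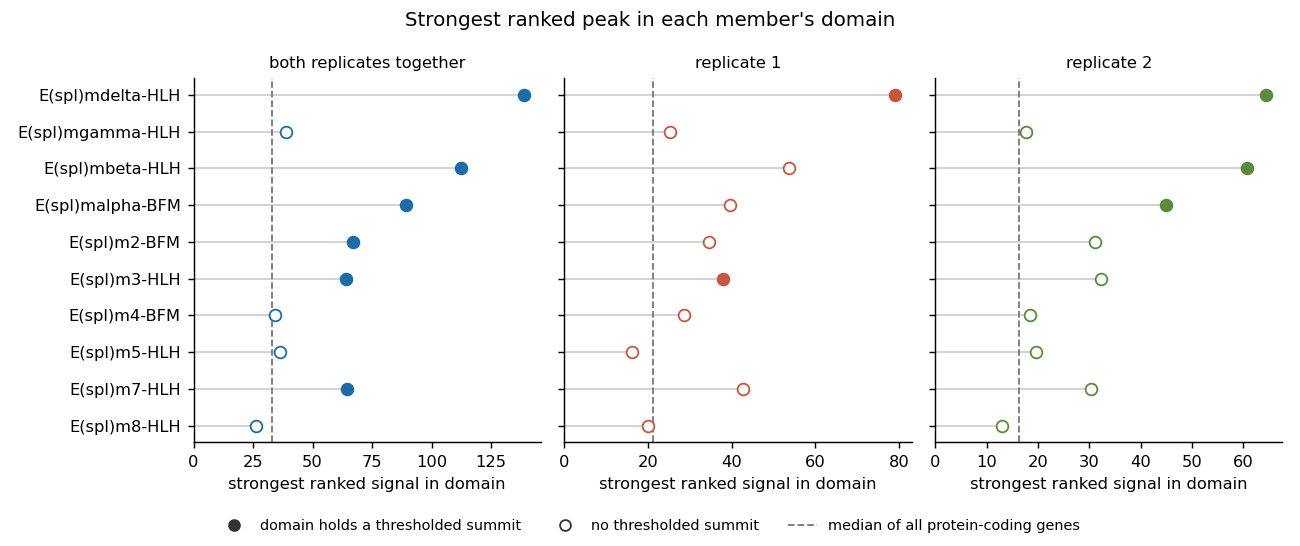
Strongest ranked peak in the domain of each of the 10 genes, in genome order on the y axis, with the authors' signal on the x axis, for both replicates together, replicate 1 and replicate 2. Filled circles are domains that hold a thresholded summit, open circles those that do not, and the dashed line is the median over all protein-coding genes with a ranked peak. The plotted peak of a filled circle need not be the one that passed, as at E(spl)m3-HLH in replicate 1. E(spl)mdelta-HLH is highest in all 3 panels, and E(spl)m8-HLH is left of the line in each.

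Few of the 7 peaks passed the threshold in the list of a single replicate. Each of the 7 overlapped a ranked peak in both replicates, as did 98.9% of the whole conservative list, which was chosen for reproducibility, so the overlap says nothing particular about these peaks. The summits of the overlapping ranked peaks lay within 92 bp in replicate 1 and 35 bp in replicate 2. In replicate 1 these ranked peaks stood in the top 0.542% to 2.28% of the list by signal, and in replicate 2 in the top 0.458% to 4.41%. The 7 peaks were chosen from the same replicates, so high ranks follow in part from that choice. The range over the whole conservative list was not computed. Only 1 of the 7 overlapped a thresholded peak in both replicates, 2 did in replicate 2 alone and 4 in neither. Over the whole conservative list 40.5% of peaks did in both and 30.1% in neither. By domain, 2 members held a summit in the thresholded list of replicate 1 (E(spl)mdelta-HLH and E(spl)m3-HLH), where 13.5% of all protein-coding genes did. In replicate 2 there were 3 (E(spl)malpha-BFM, E(spl)mbeta-HLH and E(spl)mdelta-HLH), where 11.9% of all genes did. The other list across both replicates gave the same 6 genes, where 19.1% of all genes held a summit, with a further E(spl)m2-BFM summit 594 bp upstream and a signal of 39.5.

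All 7 summits were upstream of the gene in whose domain they lay. Over all protein-coding genes 46.2% of summits in domains were upstream and the rest in gene bodies (1608 of 3480, counting a summit once for each domain). The 2 shares are not alike in gene length. The members' bodies are short, from 676 to 1305 bp, so the 2 kb upstream makes up most of each domain. A comparison with genes of similar length was not made. Compared by distance to the nearest start of any gene, 5 of 7 lay within 500 bp, where 44.2% of the whole conservative list did. Within 250 bp there was 1 of 7, against 35.0% of the list. The 5 lay at a median of 394 bp from that start, and the 1275 of the whole list within 500 bp at a median of 121 bp. The nearest start was the member's own for 4 of the 7, that of CG43116 for both E(spl)mdelta-HLH summits and that of lncRNA:CR43644 for E(spl)m3-HLH. In these annotations 3 of the 7 summits also lay in the domain of a gene that is no member, CG43116 or lncRNA:CR43643.

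**Figure D3:**
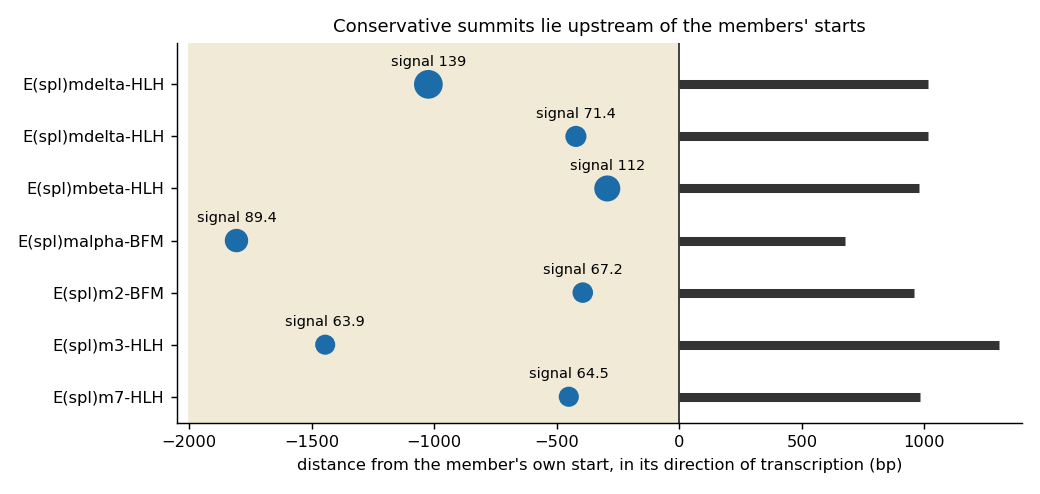
Position of the 7 conservative summits relative to the start of the member in whose domain they lie, in bp along its direction of transcription on the x axis, with 1 line per summit in genome order. Circle area is proportional to signal, which is printed above each circle, the shaded band is the upstream part of the domain and the black bars are the gene bodies. The summits lie from 294 to 1807 bp upstream, and none is over a black bar.

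No summit was shared between the domains of neighbouring members. Only the domains of E(spl)mdelta-HLH and E(spl)mgamma-HLH overlap, and no thresholded summit fell in the overlap. Among ranked peaks, 41 distinct summits lay in the 10 domains in the list across replicates, 37 in replicate 1 and 32 in replicate 2. Of these 1, 1 and 0 were in both of those domains. With 5 kb upstream in place of 2 kb, each of the 7 summits lay in more than 1 member's domain and 8 members were counted, E(spl)mgamma-HLH and E(spl)m8-HLH being added, where 23.6% of all protein-coding genes held a summit. With 1 kb the members counted were 4, E(spl)m7-HLH, E(spl)m2-BFM, E(spl)mbeta-HLH and E(spl)mdelta-HLH, where 15.9% of all genes held one. In gene bodies alone there were 0 of 10, where 8.56% of all genes held one. With 10 short genes a count of 0 is near that share and shows no avoidance of gene bodies. Within 1 kb of the start there were 4 (11.3% of all genes), by the nearest transcript start 4 (13.1%), and among the conservative peaks of above-median signal 3 (10.9%).

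Sequence at the summits was rich in A and T, and the Senseless core was present at 2 of 7. The median GC content of the 7 windows was 28.7%, from 17.8% at the second E(spl)mdelta-HLH summit to 53.5% at E(spl)mbeta-HLH, against a median of 35.6% over all 2883 summits. AAATCA stood in the windows of E(spl)malpha-BFM and E(spl)m7-HLH, and in 17.9% of all conservative windows. In the domains its density ran from 0 per kb at E(spl)mbeta-HLH to 1.68 at E(spl)m7-HLH, with a median of 1.04 over the members and 1.06 over all protein-coding genes. The strongest member peak had no AAATCA in its window. A Su(H) site of the 3 forms searched was in 2 of 7 windows, E(spl)mbeta-HLH and E(spl)m3-HLH, and in 3.47% of all conservative windows. Any of the E-boxes searched was in 0 of 7 (8.98% of all), CACGTG in 0 (0.937%), CACGCG in 0 (2.43%), TATCGATA in 0 (1.25%) and TAATTA in 0 (8.53%). The remaining motifs were GATAAG, at the second E(spl)mdelta-HLH summit (7.84%), GAGAG, in 1 of 7 (11.7%), and TTAAAA, in 3 of 7 (27.3%). GAGAG and TTAAAA are not capitalised above, and with 7 windows a share moves by 14.3 percentage points per window.

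Measured over the interval from the first to the last base of the 10 domains, 3R 25995621 to 26041008, the conservative list had 7 summits in 45388 bp. Of 2918 abutting windows of this length on the large arms and X, 18 (0.617%) held as many or more. The mean was 0.988 per window, the median 0 and the highest count 15. The interval was set by the members' own domains, and the windows cover the arms whatever their gene content. The share is thus a description and not a test of clustering. In the replicates' own lists the interval held 3 summits each, and 6.89% of windows held as many or more in replicate 1 and 5.11% in replicate 2. Other genes of the interval had no thresholded summit in their domain in the conservative list, among them Kaz-m1 (also E(spl)m1, a gene of the Kazal protease inhibitor family) and E(spl)m6-BFM, except CG43116 and lncRNA:CR43643, which share theirs with members. Directly beyond E(spl)m8-HLH, gro (FBgn0001139), which encodes Groucho, had a peak with its summit 129 bp from a start of gro and a signal of 271. It had 170 in replicate 1 and 98.6 in replicate 2 and was higher than any member's peak in each list.

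Related genes elsewhere were counted by the same rule. The Bearded complex, another cluster of Bearded family genes, had 0 of 4 matched genes (Brd, Tom, Ocho and BobA) with a summit in any of the 4 thresholded lists. Of 5 other genes of the Hairy and E(spl) type of repressor (hry, dpn, Hey, Sidpn and cwo), 1 held a conservative summit, the clock repressor gene cwo, with a signal of 88.8. Among 9 genes of proneural bHLH proteins and their partners there were 2, emc (95.2), which encodes an inhibitor of bHLH proteins, and da (55.6), which encodes their common partner. The other 7, ac, sc, l(1)sc, ase, ato, amos and cato, had none. Of 22 Notch pathway genes 11 held a summit, led by gro, N (220, the receptor), numb (178, a Notch inhibitor), neur (139, the ligase Neuralized) and mam (120, a coactivator). In the replicates' own thresholded lists the Notch pathway count was 7 of 22 in each. The proneural count was 0 of 9 in replicate 1 and 1 of 9 in replicate 2, and the Hairy and E(spl) type stayed at 1 of 5. The share for all genes is the 17.9% given above for the conservative list, 13.5% in replicate 1 and 11.9% in replicate 2. No difference between the groups of genes was tested. A longer gene has a longer domain in which a summit can fall, and the lists were not matched for gene length.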

How the data were processed

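ChIP-seq peaks of Sens-2-eGFP from 2 replicates were analysed, with replicate numbers from the labels. Per the deposited text files the lists are on dm6, and those of 1 replicate came from its own alignments, the others from both. The aligner is not given in the sources used here, nor is the peak caller. Each deposited list holds the authors' signal per peak, on a scale of its own, and a score derived from IDR, at most 1000 and at least 830 in thresholded lists. Of the ranked lists across replicates, the one whose scores match the conservative list was used. A further 8 columns of signal that no header ties to a sample were not used. Read depth is unknown from peak lists, so no interval is given.

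Peaks on unplaced scaffolds, 16 in the conservative list, were left out. Genes came from Ensembl release 115 (pseudogenes and transposable elements removed). Sequence is from Release 6, with the coordinates of dm6. Summits are 1-based. Replicate support was overlap of at least 1 bp. Motifs were searched on both strands. Older symbols Dl, nct, h and ocho were matched to Delta, Nct, hry and Ocho, and BobB and BobC had no match. All 10 members and listed genes with a summit, up to 5 per list, were named. Members, lists and motifs were chosen with earlier results of these data known. No test was run, and assignment and motif search were tested on simulated data. Alternatives covered the peak list, domain, start window, overlap rule and motif window. Work used Python 3.11.15, numpy 2.4.6 and pandas 2.3.3.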

Additional observations from a re-analysis of the deposited data

How the results depend on the processing

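Counts were called unchanged within 1.5 times the reported one, and 18 of 41 alternatives to the main counts and 25 of 40 to the counts of single genes were. With either replicate's own list, 2 to 3 members had a summit, with 3 distinct summits in each, 2 to 3 of them near a start, 0 to 1 with AAATCA, and 3 in the complex interval. In the stronger peaks of the conservative list by signal, 3 members and 3 summits were left, with 2 near a start, 1 with AAATCA and 3 in the interval. Without upstream sequence 0 members and 0 summits were counted, and with 1 kb upstream, within 1 kb of the member's start or by nearest start 4 summits were. By nearest start the 4 members were E(spl)m2-BFM, E(spl)m7-HLH, E(spl)malpha-BFM and E(spl)mbeta-HLH. With a 250 bp window 1 summit lay near a start, and 1 held AAATCA within 51 bp. Counting overlap with ranked in place of thresholded peaks, 7 of 7 summits were found in both replicates, as were 98.9% of the conservative list. The fewer summits in the stronger peaks and shorter domains follow from fewer peaks or bases counted. The replicates' own lists are also shorter, with 1960 peaks in replicate 1 and 1636 in replicate 2 against 2883 in the conservative list. How much of their lower counts goes with list length was not tested. With 2 replicates, 7 summits and unknown depth, the absence of a peak at a gene is not shown. No paired analysis was possible because there is only 1 group.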

Other observations

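Matches to the Su(H) sites GTGGGAA or GTGAGAA near the start of a member, and thresholded Sens-2 summits, were seen mostly at different members. Of the 4 genes with no conservative summit, E(spl)m5-HLH, E(spl)mgamma-HLH, E(spl)m8-HLH and E(spl)m4-BFM, 4 had such a match in the 500 bp before the start. Of the 6 genes with a summit, 2 had one, E(spl)mbeta-HLH and E(spl)malpha-BFM. Over all protein-coding genes 10.2% had one. This split was chosen after the values were seen and was not tested. It also depends on the window, since every member had at least 1 GTGGGAA in its domain with 2 kb upstream. E(spl)m3-HLH had no match in the 500 bp before its start, but GTGAGAA lay 31 bp from its conservative summit. The nearest such match lay at a median of 253 bp from the summits, from 5 bp at E(spl)mbeta-HLH to 568 bp at E(spl)m2-BFM. This distance was not measured for other summits or other positions in the domains. It therefore does not show that the summits lie closer to such sites than other positions do.

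Signal and the authors' threshold ordered peaks differently, both within E(spl)m3-HLH and between members. In replicate 1, an E(spl)m3-HLH peak with a signal of 10.2 passed with a score of 994, and one with a signal of 37.8 did not, with a score of 42. Stronger peaks of other members also failed there, among them those of E(spl)mbeta-HLH (53.8, score 827) and E(spl)m7-HLH (42.8, score 499). All 7 conservative peaks in the members' domains had the full width of 296 bp, as did 88.5% of the conservative list.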
